A study of Mus musculus with 2 samples.

Results

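The 10 genes described here make, move and burn lactate and pyruvate: Ldha, Ldhb, Slc16a1, Slc16a3, Slc16a7, Bsg, Mpc1, Mpc2, Pdk1 and Pdha1, out of 21887 protein-coding genes. They were taken by name, and each was examined over its RefSeq span plus 20 kb on either side. Those regions held 31 of the 46592 control peaks and 23 of the 39768 lactate peaks of H4K12la, the mark left when lysine 12 of histone H4 is lactylated. The peaks came from CUT&Tag, in which a transposase is tethered to an antibody-bound mark and tags the DNA beside it. The cells were Neuro2a, a mouse neuroblastoma line grown in medium with fetal serum. The control library came from cells given NaCl and the lactate library from cells given 25 mM lactate, and neither the NaCl dose nor the time of exposure is given in the sources used here. With 1 library per group no test between groups was possible, so each difference below is between these 2 libraries.

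Lactate and pyruvate are interconverted by lactate dehydrogenase, whose subunits are encoded by Ldha and Ldhb. Lactate crosses the plasma membrane through monocarboxylate transporters, several of which need the chaperone basigin (Bsg) to reach the surface. Pyruvate enters mitochondria through a carrier made of Mpc1 and Mpc2, and the pyruvate dehydrogenase complex, with Pdha1 as its catalytic alpha subunit, turns it into acetyl-CoA unless Pdk1 or a related kinase switches the complex off. Lactate can also be the source of the lactyl group on histone lysines.

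A peak is an interval where reads stood above the surroundings within 1 library. Its summit reads are the number of reads stacked at its highest base, recovered from the deposited fold and p-value, with an exact 95% Poisson interval that covers counting error only. The local background is the stack expected from the surroundings, recovered the same way. Each list's weakest call had 11 summit reads, but a call also depended on the local background. A region without a call may thus hold signal below about that level, or above it where the background is raised. Relative depth was inferred from the genome-wide backgrounds, 2.96 control reads and 3.06 lactate reads, which put the lactate library 3.43% deeper. Read totals were not used. Of 14 sympathoadrenal and neuronal markers, 7 had a lactate peak within 1 kb of a gene end (50%, against 44.8% of all genes) and 5 a control peak (35.7%, against 32.0%). These shares are near the background and say little about the line, and Gata3, Th, Dbh and Elavl3 were among those with none in either. Of 12 markers of other cell types, Mbp alone had one, in the lactate library, with 15 summit reads.

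RefSeq starts were listed for 8 of the 10 genes, at 11 sites. Slc16a7 and Bsg had no entry. The 250 bases before 6 of these starts are shown because they span the outcomes seen: a peak at the same place in both libraries (the higher-coordinate start of Ldha), a peak in the lactate library alone (the lower-coordinate start of Ldha, Mpc1, Pdk1), a lactate peak over the start with smaller control peaks on either side (Slc16a1), and no peak (Ldhb). They are RefSeq sequences on GRCm38.p6, the assembly that mm10 names, written 5′ to 3′ along the gene, and capitals mark ACGTG on either strand, the core of the hypoxia response element, which is also part of every CACGTG E-box.
Ldha, lower-coordinate start, chr7:46845554-46845803, plus strand: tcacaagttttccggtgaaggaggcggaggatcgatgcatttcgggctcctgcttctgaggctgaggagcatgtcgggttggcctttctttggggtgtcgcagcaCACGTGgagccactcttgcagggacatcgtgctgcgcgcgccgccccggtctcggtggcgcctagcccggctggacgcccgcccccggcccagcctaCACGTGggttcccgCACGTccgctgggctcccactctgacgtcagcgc
Ldha, higher-coordinate start, chr7:46846832-46847081, plus strand: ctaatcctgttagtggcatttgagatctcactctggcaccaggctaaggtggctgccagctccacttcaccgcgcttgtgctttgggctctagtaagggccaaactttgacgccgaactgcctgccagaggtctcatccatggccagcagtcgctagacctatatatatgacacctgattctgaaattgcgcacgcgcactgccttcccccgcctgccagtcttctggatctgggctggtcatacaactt
Slc16a1, chr3:104638414-104638663, plus strand: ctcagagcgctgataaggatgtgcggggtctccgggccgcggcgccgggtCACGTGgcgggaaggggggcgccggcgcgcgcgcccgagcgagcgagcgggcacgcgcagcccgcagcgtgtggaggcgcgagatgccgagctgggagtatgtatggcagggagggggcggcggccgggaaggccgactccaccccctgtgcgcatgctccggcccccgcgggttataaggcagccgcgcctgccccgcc
Mpc1, lower-coordinate start, chr17:8283537-8283786, plus strand: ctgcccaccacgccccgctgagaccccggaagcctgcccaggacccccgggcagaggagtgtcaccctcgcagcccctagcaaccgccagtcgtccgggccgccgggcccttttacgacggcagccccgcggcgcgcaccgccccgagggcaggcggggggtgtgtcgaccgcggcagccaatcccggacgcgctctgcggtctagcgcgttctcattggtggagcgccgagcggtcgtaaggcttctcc
Pdk1, lower-coordinate start, chr2:71872974-71873223, plus strand: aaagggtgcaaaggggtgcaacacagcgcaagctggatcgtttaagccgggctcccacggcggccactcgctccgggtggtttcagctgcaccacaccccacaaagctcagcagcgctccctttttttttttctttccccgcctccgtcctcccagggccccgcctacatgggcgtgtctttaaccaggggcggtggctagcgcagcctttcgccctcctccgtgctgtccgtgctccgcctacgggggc
Ldhb, chr6:142507958-142508207, minus strand: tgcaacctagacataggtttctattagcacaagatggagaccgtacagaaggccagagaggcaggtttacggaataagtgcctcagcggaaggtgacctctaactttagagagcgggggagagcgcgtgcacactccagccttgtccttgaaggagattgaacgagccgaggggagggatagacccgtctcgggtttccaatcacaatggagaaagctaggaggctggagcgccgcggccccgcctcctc

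The starts differed in these letters. The sequence before the lower-coordinate Ldha start held 3 capitalised stretches, of which 2 are CACGTG, and that before Slc16a1 held 1, also a CACGTG. No ACGTG lay before the Mpc1, Pdk1 and Ldhb starts shown, nor before the higher-coordinate Ldha start. Of the starts not shown, that of Slc16a3 had 2 ACGTG stretches before it, and no peak of either library lay over that start. The other starts not shown, which include those of Mpc2 and Pdha1 with peaks in both libraries, had none before them. The presence of ACGTG thus did not follow the presence of a peak at these starts. In the full window of 300 bases, which runs 50 bases past the start, CACGTG was found in 7.84% of 21263 windows at protein-coding starts and ACGTG in 20.9%. The window at the lower-coordinate Ldha start also held 1 TGACGTCA, the cAMP response element, found in 2.23% of windows. GGGCGG or its complement, the GC box, was found in 46.2% of windows, with 3 matches at the lower-coordinate Ldha start, 2 at Pdk1, 2 at Mpc2 and none at Ldhb or Pdha1. CCAAT on either strand was found in 38.2% of windows, with 2 matches at the lower-coordinate Mpc1 start and 1 at Mpc2 and Ldhb. TATAAA (12.6% of windows) and the NRF1 motif (1.33%) were searched on both strands and were in none of the 11 member windows. GC content over the 11 windows had a median of 66.0%, against 56.3% over all windows, and ran from 40.3% at the higher-coordinate Pdk1 start to 73.7% at Slc16a1 and at the lower-coordinate Mpc1 start. Matches describe the sequence and are not binding sites.

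Peaks within 1 kb of an annotated end of the gene were called for 5 of the 10 members in the control library and for 7 with lactate. Over all protein-coding genes the shares were 32.0% and 44.8%. Slc16a1, Slc16a7, Bsg, Mpc2 and Pdha1 had gene-end peaks in both (28.6% of all genes), and Mpc1 and Pdk1 had only lactate ones (16.2% of all genes). No member was called at an end in the control alone, as were 3.34% of all genes. With 10 genes these shares are counts to be read beside the background and do not set the members apart from it. Ldha, Ldhb and Slc16a3 had no gene-end call (51.9% of all genes). Of the 8 members with a listed start, 4 had a control peak within 1 kb of one, against 33.0% of all genes with a listed start, and 6 had a lactate peak there, against 46.7%. Counting the whole region, 7 members had a control peak and 9 a lactate peak, against 67.8% and 73.1% of all gene regions. The region without a peak belonged to Ldhb, and those without a control peak also to Mpc1 and Pdk1. Among the 8 genes with listed starts, those with a lactate start peak alone were again Mpc1 and Pdk1, and 16.4% of genes with a listed start had one.

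**Figure D1:**
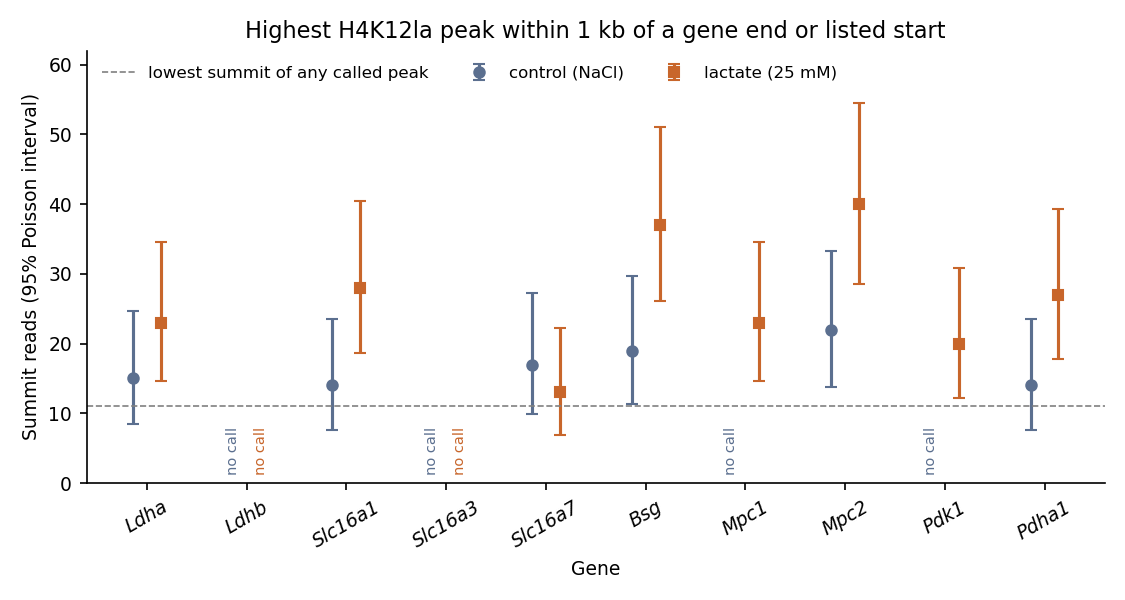
Summit reads (vertical axis, with exact 95% Poisson intervals) of the highest peak within 1 kb of an annotated end or a listed start of each gene, in the control library (circles) and the lactate library (squares). The dashed line is the lowest summit of any called peak, 11 reads. Control values run from 14 to 22 reads and lactate values from 13 to 40, and Slc16a7 alone of the 6 genes with both values is lower in the lactate library. For Slc16a7 the control and lactate peaks shown lie at opposite ends of the gene and are not the same site.

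Among the plasma membrane transporters, Slc16a1 carried the most peaks outside Slc16a7. It encodes MCT1, the widely expressed carrier that moves lactate in either direction. The lactate library had 1 peak of 1115 bp over the Slc16a1 start (chromosome 3, 104637823 to 104638937) with 28 summit reads (18.6 to 40.5) and a summit 183 bp before the start. The control had 2 separate narrow peaks there, of 145 and 168 bp, each with 14 reads (7.65 to 23.5), one before the start and one after it. Neither control peak reached the 300-base start window, which the lactate peak covered in full. The ratio of summit reads, lactate to control, was 2.0 (exact conditional binomial interval 1.02 to 4.11), while the deposited fold was 4.14 against 3.79. The lactate summit lay 242 bp from that of the control peak used and outside both control peaks. The ratio thus compares the highest bases of 2 peaks and not the same base. Fold is the summit plus 1 over the local background plus 1. Without the added 1 the ratio of summit to background was 4.67 for the lactate peak and 4.73 for the control peak, so the direction turned. The local background itself was 6.0 lactate reads against 2.96 control reads, the latter being the genome-wide floor.

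Away from its start, Slc16a1 had a peak inside the gene and 2 beyond its higher-coordinate end that were called at the same places in both libraries. The peak inside the gene, 5.4 kb from the start, had 15 control reads and 26 lactate reads. The peak 2.2 kb beyond the end had 14 and 20 reads. The highest peak of the region lay 11.7 kb beyond the end (lactate interval 104670156 to 104670771), with 22 control reads (13.8 to 33.3) and 35 lactate reads (24.4 to 48.7). No other protein-coding gene lies in this region. A further control peak, 16.9 kb beyond the end with 16 reads, had no lactate partner.

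Bsg, whose product escorts MCT1 and MCT4 to the cell surface, had a peak across its lower-coordinate end (chromosome 10, gene 79704358 to 79711979). The control peak, 79704266 to 79704454, had 19 summit reads (11.4 to 29.7), and the lactate peak, 79704273 to 79704533, had 37 (26.1 to 51.0). The ratio was 1.95 (1.09 to 3.58), and fold was 3.12 with NaCl and 3.58 with lactate. Its local backgrounds, 5.40 and 9.60 reads, were the highest of the matched peaks in each library. One further peak per library lay inside the neighbouring gene Hcn2, the lactate one with 17 reads and the control one with 16, and these did not overlap.

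Slc16a3 encodes MCT4, the transporter of cells that export lactate from glycolysis. It had no peak within 1 kb of its ends or of its listed start in either library. The lactate library had 1 peak inside the gene (chromosome 11, 120950682 to 120951062), 1949 bp after the listed start, with 30 summit reads (20.2 to 42.8). The local background there was 10.7 reads, so fold was 2.65 and −log10 q 3.52. In the flank, a peak at the end of the neighbouring gene Ccdc57 was called in both libraries, with 19 control and 27 lactate reads. A control peak 10.4 kb from Slc16a3, with 14 reads, had no partner.

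**Figure D2:**
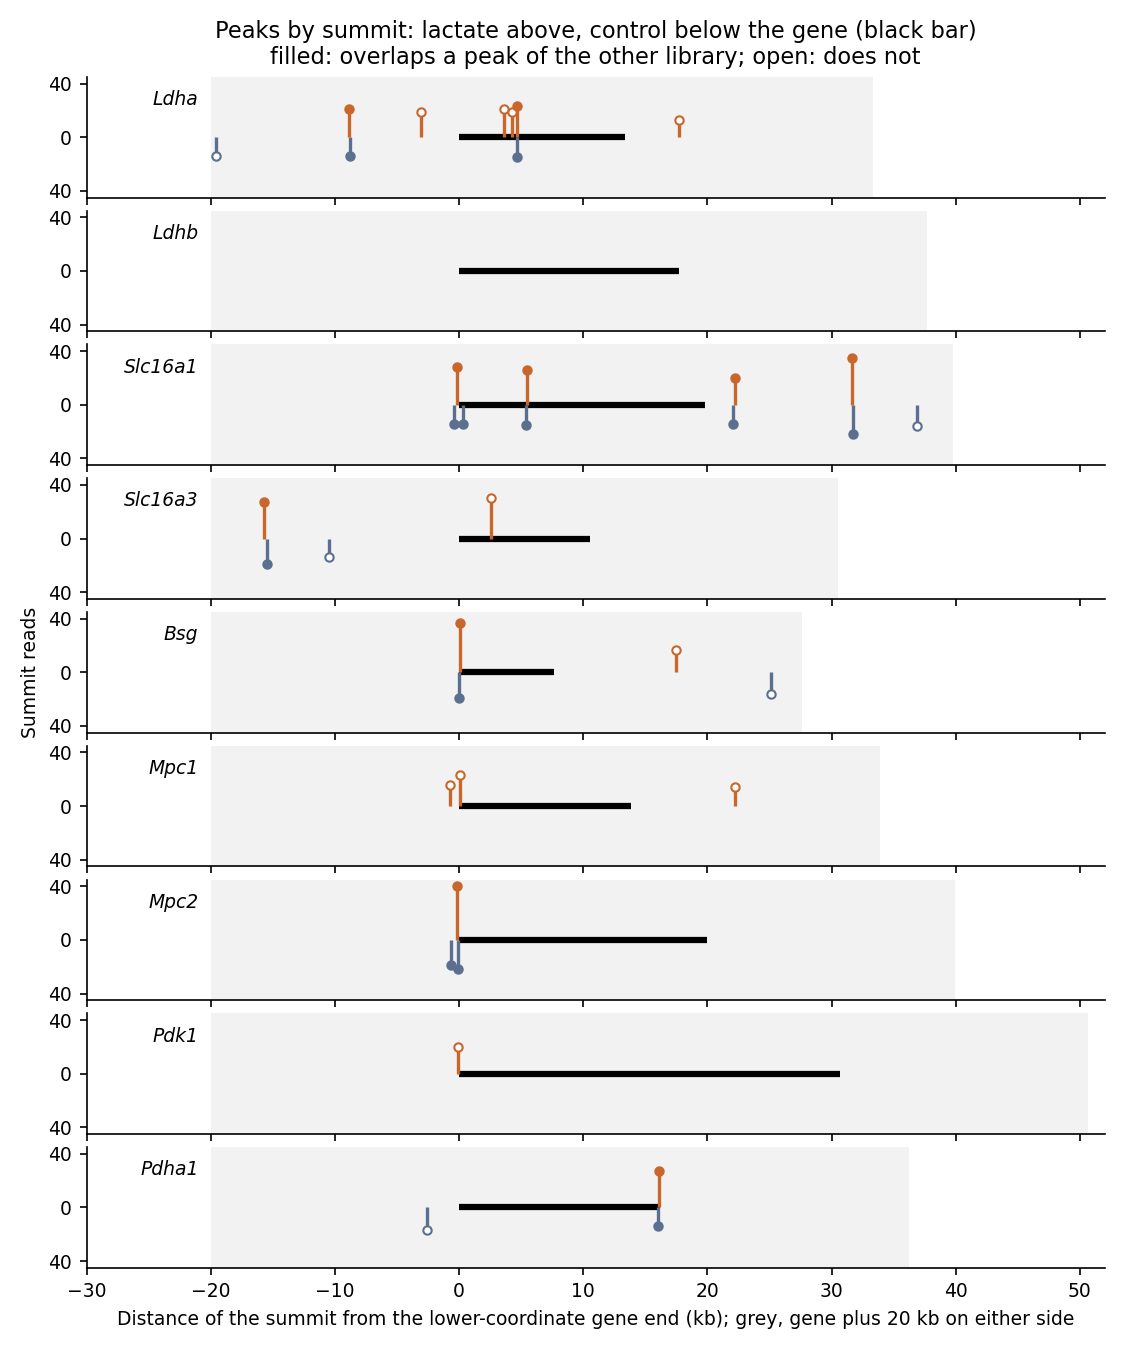
All peaks of 9 member regions, placed by the distance of the summit from the lower-coordinate gene end in kb (horizontal axis), with summit reads as bar height, lactate above and control below the gene (black bar). Filled circles overlap a peak of the other library. Slc16a1 shows 4 lactate peaks that each meet a control peak, Mpc1 and Pdk1 show lactate peaks alone, and Ldhb is empty.

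Slc16a7 had the most control peaks of any member. It encodes MCT2, the high-affinity carrier of neurons. It spans 170317 bp of chromosome 10 (125219270 to 125389586), by far the longest of the members. Its region held 14 control peaks and 3 lactate peaks, and 1 pair overlapped. The control peaks had 12 to 19 summit reads with a median of 16, lay at both gene ends, in the body and in both flanks, and none reached a −log10 q of 5. The 3 lactate peaks had 13, 14 and 13 reads. These and the weakest control peaks were near the lowest summit of any called peak, 11 reads. In the overlapping pair, inside the gene, the control had 16 reads and the lactate library 14, a ratio of 0.875 (0.396 to 1.91). At the higher-coordinate end the libraries each had a peak, with 17 control and 13 lactate reads, that did not overlap.

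The median local background of the Slc16a7 peaks was 4.0 reads for the control ones and 3.06, the genome-wide floor, for the lactate ones. In the other 9 regions together the control had 17 peaks and the lactate library 20. More control than lactate peaks were counted for 4 of the 10 members (Slc16a1, Slc16a7, Mpc2 and Pdha1) and more lactate than control peaks for 3 (Ldha, Mpc1 and Pdk1). The shares over all gene regions were 20.6% and 43.9%. At Slc16a1 and Mpc2 a wide lactate peak met 2 control peaks, so these counts are of peaks and not of separate sites. More control peaks were counted in 30.7% of the 2429 regions of genes of 100 kb or longer. The median region of these long genes held 3 control and 4 lactate peaks. At least 10 control peaks and at least 4 times as many control as lactate peaks, a pair of limits chosen after the Slc16a7 values were seen, were met by 71 of those regions (2.92%). Of the 14 control peaks at Slc16a7, 7.14% had a lactate partner (exact interval 0.181% to 33.9%), against 37.7% of all control peaks. The latter share covers peaks of every placement and strength, while 10 of the 14 lay in the gene body, so the 2 shares are not of like peaks.

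**Figure D3:**
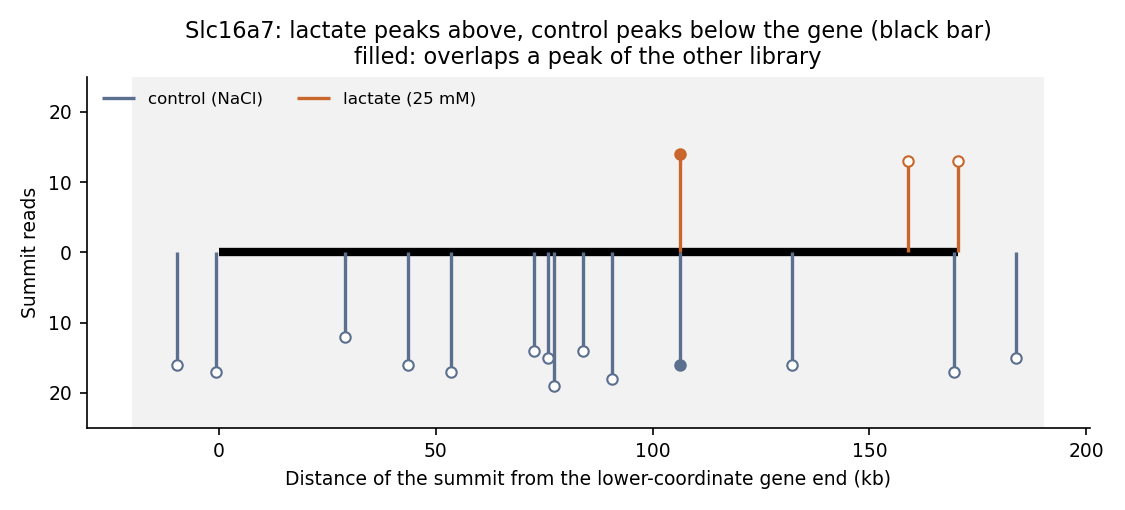
Peaks of the Slc16a7 region by distance of the summit from the lower-coordinate gene end in kb, with summit reads as bar height, lactate above and control below the gene (black bar). The 14 control peaks are spread along the region at 12 to 19 reads, the 3 lactate peaks have 13 or 14 reads, and the filled circles mark the single overlapping pair.

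The lactate dehydrogenase genes differed in whether they had peaks at all. Ldha encodes the A subunit, abundant in cells that form lactate. Its annotated span on chromosome 7, 46842274 to 46855627, begins upstream of both listed starts, at 46845804 and 46847082, so that peaks at those starts count as inside the gene. Counted by listed starts, Ldha joined the members with a peak in both libraries. Just before the higher-coordinate start, the control peak (46846868 to 46847001) had 15 summit reads (8.40 to 24.7) and the lactate peak (46846890 to 46847071) had 23 (14.6 to 34.5). Their intervals overlapped, and the ratio was 1.53 (0.766 to 3.16).

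The lower-coordinate Ldha start, the one with the E-boxes, had a peak in the lactate library alone. It ran from 46845818 to 46845949, with its summit 100 bp after the start and 21 reads (13.0 to 32.1). Between the starts a further lactate peak had 19 reads. All 3 lactate peaks at the starts stood on local backgrounds of 7.24 to 7.48 reads, their folds ran from 2.43 to 2.83, and none reached a −log10 q of 5. In the flank, a peak 8.7 kb from the gene was called in both libraries with 14 control and 21 lactate reads, though the intervals shared only 54 bp. Of the remaining flank peaks, the control had 1, inside Gtf2h1, and the lactate library had 2.

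Ldhb encodes the B subunit, typical of tissues that use lactate. Its gene, at chromosome 6, 142490249 to 142507957, had no peak in either library at its ends, in its body or within 20 kb. An empty region was found for 19.4% of all genes. The nearest control peak, with 35 reads, lay 103 kb away, and the nearest lactate peak, with 44 reads, 102 kb away. Its start window had a GC content of 57.3% and 17 CpG, near the medians of 56.3% and 13 over all windows.

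The mitochondrial pyruvate carrier genes had peaks at their starts in the lactate library, and Mpc2 in the control as well. Mpc1 had no control peak in its whole region. The lactate peak over its lower-coordinate start (chromosome 17, 8283469 to 8284220) was 752 bp wide, with its summit 39 bp after the start, 23 reads (14.6 to 34.5) and a −log10 q of 5.56. A second lactate peak, 605 bp before the gene, had 16 reads, and another, 8.2 kb beyond its other end, had 14. Mpc2 had the highest peak of all the members, 1139 bp wide in the lactate library (chromosome 1, 165460270 to 165461408), with 40 reads (28.6 to 54.5) and a −log10 q of 11.5. The control had 2 peaks under it with 22 (13.8 to 33.3) and 19 reads. The ratio to the higher of them was 1.82 (1.05 to 3.21), but fold was 4.52 with lactate and 4.55 without. These peaks lie where the ends of Mpc2 and Dcaf6 meet and cannot be assigned to either gene.

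At pyruvate dehydrogenase, Pdha1 had its peak at the start, which on the minus strand is its higher-coordinate end (chromosome X, gene 160122219 to 160138430). The control peak, 160138153 to 160138395, had 14 reads (7.65 to 23.5). The lactate peak, 160138018 to 160138837, had 27 (17.8 to 39.3) and was 820 bp wide against 243 bp. The ratio of 1.93 had an interval from 0.976 to 3.98, and fold was 4.81 against 3.79, the largest rise in fold among the matched peaks. A control peak of 17 reads in the flank lay inside Map3k15.

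Pdk1, which encodes a kinase that inactivates the complex, had a single peak in its region, in the lactate library. It ran from 71872960 to 71873390 on chromosome 2, with its summit 131 bp before the lower-coordinate start, 20 reads (12.2 to 30.9) and a −log10 q of 7.12. Its local background was the genome-wide floor of 3.06 reads, and its fold of 5.17 was the highest of the 54 peaks in the member regions. The Pdk1 peak thus stood alone, while the Ldha peaks with similar summits of 19 to 23 reads stood on a raised local background. No peak met the higher-coordinate Pdk1 start window, whose GC content was 40.3%.

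Peaks present in both libraries were compared pair by pair. A control partner was found for 11 of the 23 lactate peaks (47.8%, exact interval 26.8% to 69.4%), and a lactate partner for 13 of the 31 control peaks (41.9%, 24.5% to 60.9%). Over all peaks the shares were 43.4% and 37.7%. In 10 of the 11 pairs summit reads were higher in the lactate library, the exception being the Slc16a7 pair, and the median ratio was 1.59. The intervals of 3 ratios lay above 1, those at the ends of Slc16a1, Bsg and Mpc2. Each ratio sets the highest base of 1 peak against that of the other, and at Slc16a1 these bases lay 242 bp apart. Divided by the relative depth, the Slc16a1 interval ran from 0.986 and no longer lay above 1, while those of Bsg and Mpc2 began at 1.05 and 1.02. Local background was higher in the lactate library in 10 of 11 pairs, with a median ratio of 1.79, and fold in 5 of 11, with a median ratio of 0.993. Without the 1 that fold adds to both terms, the ratio of summit to background was higher with lactate in 3 of 11 pairs (Slc16a7, Bsg and Pdha1), with a median of 0.913. The lactate peak was the wider in 10 of 11 pairs, the exception being the peak inside Slc16a1, at 299 against 308 bp.

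Across the genome the medians had the same directions. Over all 17245 matched pairs, summit reads were higher in the lactate library in 69.3% (median ratio 1.23), local background in 82.9% (1.34) and fold in 43.6% (0.973). The lactate peak was the wider in 61.6% of these pairs, with a median width ratio of 1.16. Among the 6266 genes with a gene-end peak in both libraries, the higher summit was in the lactate library for 94.6%, with a median ratio of 1.55 and quartiles of 1.33 and 1.77. The ratios at Slc16a1, Bsg, Mpc2 and Pdha1, 1.82 to 2.0, lay above that upper quartile, and their intervals each held the median. Higher lactate summits at gene ends were thus common to most genes called in both.

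**Figure D4:**
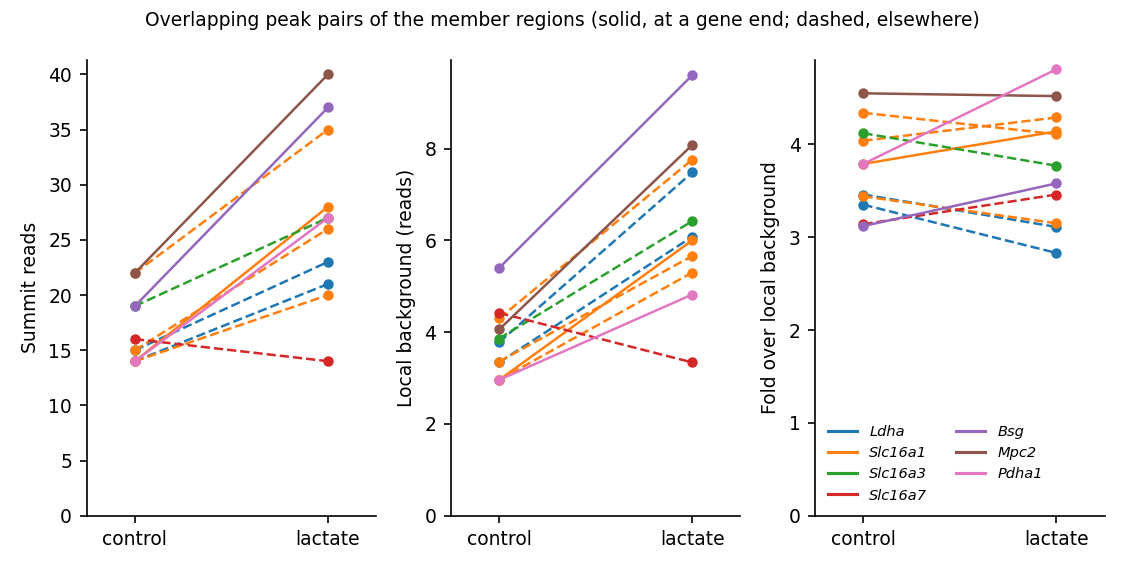
Each line joins a control peak to the lactate peak it overlaps, for the 11 pairs of the member regions, showing summit reads (left), local background in reads (middle) and deposited fold (right). Solid lines are pairs at a gene end and dashed lines pairs elsewhere. Summit reads and local background are higher in the lactate library in 10 of 11 pairs and fold in 5.

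Strength, taken as −log10 q, differed more than number. Fold in the matched pairs did not differ in this way, with a median ratio of 0.993. A −log10 q of at least 5 was reached by 9 of the 23 lactate peaks and 2 of the 31 control peaks, against 24.7% of all lactate and 13.2% of all control peaks. By gene, a gene-end peak of that strength was found for 6 members with lactate and for 1, Mpc2, with NaCl, where the shares over all genes were 24.1% and 8.54%. The 6 were Slc16a1, Bsg, Mpc1, Mpc2, Pdk1 and Pdha1. The members were chosen with earlier results of these data known, so these counts do not set them apart from other genes. The lactate peaks had a median width of 268 bp and covered 9010 bp, and the control peaks had a median of 180 bp and covered 7096 bp, or 4151 bp without the Slc16a7 region. Over all peaks the median widths were 207 and 192 bp.

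A wider list of 34 other genes of lactate and pyruvate metabolism was examined in the same way. Gene-end peaks were found in both libraries for 14, with lactate but not NaCl for 5, and for no gene the other way round, which left 15 without any. In all, 19 of 34 were called with lactate (55.9%, against 44.8% of all genes) and 14 of 34 with NaCl (41.2%, against 32.0%). Those called with lactate alone made up 14.7%, against 16.2% of all genes, and those without a call 44.1%, against 51.9%. The partners of Pdha1 in the pyruvate dehydrogenase complex, Pdhb, Pdhx, Dlat and Dld, were all called in both. Dld, the dihydrolipoamide dehydrogenase, had 18 control reads (10.7 to 28.4) and 36 lactate reads (25.2 to 49.8). Pdhx, the component that binds Dld, had 19 and 35 reads at a site shared with the end of Apip. Gpt2, mitochondrial alanine aminotransferase, had 22 and 36 reads, and Me2, a mitochondrial malic enzyme, 12 and 29. For all 4 genes the Poisson intervals of the libraries overlapped, as they also did at the ends of Slc16a1, Bsg and Mpc2. Such overlap is no sign of equal counts.

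The genes of the list called in the lactate library alone were Pkm, Pdp2, Pcx, Pklr and Me3. Pkm, a pyruvate kinase gene, had 20 reads (12.2 to 30.9) and the pyruvate dehydrogenase phosphatase Pdp2 had 19 (11.4 to 29.7). Pcx, pyruvate carboxylase, had 13 reads, Pklr, the liver and red cell pyruvate kinase, 18, and Me3, a malic enzyme, 11. None of these 5 reached a −log10 q of 5, with Pkm nearest at 4.96, and the Pklr peak also lay at the end of Hcn3. The other kinases of the complex differed from Pdk1 in having no gene-end call: the Pdk2 and Pdk3 regions held no peak in either library, and the Pdk4 region held 1, in the control. Among the remaining lactate transporters listed, Slc16a4, Slc16a8, Slc5a8 and Slc5a12 had no gene-end call.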

How the data were processed

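H4K12la CUT&Tag was read from 1 control and 1 lactate library, both sequenced as 150-base read pairs per the labels' protocols. BWA, deepTools and MACS2, and the build mm10, are named in the submitters' processing notes. No version, calling setting or control library is given in the sources used here. Per library the authors deposited 1 peak list, called separately, in MACS2 layout. The deposited fold is the ratio of summit plus 1 to local background plus 1, −log10 p and −log10 q were deposited for that summit, and the score that the authors deposited equals 10 times the −log10 q. The lowest −log10 q was 1.30 in each list, a q of 0.05.

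Mitochondrial peaks were left out. Summit reads and local background were solved from fold and −log10 p, and gave a whole number within 0.001 of the −log10 p that was deposited, for 46591 of 46592 control and all 39768 lactate peaks. On 20000 simulated peaks the true value was returned for 100%. The labels name no molecular identifiers, so intervals are taken to cover counting error only.

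Genes and starts came from RefSeq tables of GRCm38.p6. Peaks were placed at an annotated end (within 1 kb), in the body or in the flank, and matched by an overlap of at least 1 bp. The 10 members, the 34-gene list, the marker lists and the alternatives were chosen with earlier results of these data known. All members were named. Of the 34 genes, up to 6 called in 1 library and up to 4 called in both were named, the highest −log10 q first, and others are named as parts of a complex or family. Thresholds, list length, windows, flanks, overlap rules and measures were varied. Python 3.11.15, numpy 2.4.6, pandas 2.3.3, scipy 1.17.1 and matplotlib 3.10.9 were used.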

Additional observations from a re-analysis of the deposited data

How the results depend on the processing

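No paired analysis was possible because each group has 1 library. With only peaks at a −log10 q of 5 or more, gene-end calls fell from 5 to 1 in the control and from 7 to 6 in the lactate library, and region peaks from 31 to 2 and from 23 to 9. At 10 they fell to 0 and 1 members, and to 0 and 1 peaks. Lists of equal length kept all 4 counts within 1.5 times. Merged intervals and flanks of 5 or 10 kb, run for the region counts, did the same, as did windows of 500 bp or 3 kb and the 5′ end alone, run for the gene-end counts. Listed starts, with both ends for Slc16a7 and Bsg, which had none listed, gave 6 and 8 members. This alternative was chosen after seeing the data.

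The overlap shares left the exact interval of the main value in 4 cases. The control share was 22.6% with an overlap of 50% of each peak (the lactate share, at 30.4%, stayed inside its interval), and 100% (2 of 2 peaks) for peaks with a −log10 q of at least 5, where the lactate share was 77.8% (7 of 9). Without the Slc16a7 region, an alternative added after seeing the data, the control had 17 peaks, fewer than the 20 of the lactate library, and its share was 70.6%. The ratio at Mpc2 turned from 1.82 in summit reads to 0.993 in fold. The plain ratio of summit to local background, added after seeing the data, turned to 0.914 at Mpc2 and 0.986 at Slc16a1. At Slc16a7 the control and lactate peaks used lie at opposite gene ends, so the ratio there compares no single site. It turned from 0.765 in summit reads to 1.03 in the plain ratio. Scaling for depth turned none. Each summit in the member regions has 12 to 40 reads behind it, which leaves every ratio a wide interval.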

Other observations

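Values outside the naming rule, chosen after they were seen, add 3 genes. Emb encodes embigin, a relative of basigin that also escorts monocarboxylate transporters, and its gene-end peaks had the highest summits of the 34-gene list in each library, 33 control reads (22.7 to 46.3) and 41 lactate reads (29.4 to 55.6). Its −log10 q was 9.98 with NaCl and 8.39 with lactate. Gpt, cytosolic alanine aminotransferase, had no gene-end peak, but its region held 5 lactate peaks and 0 control peaks. Ldhc, the testis lactate dehydrogenase that neighbours Ldha, had no gene-end peak, and its region, which overlaps that of Ldha, held 1 control and 4 lactate peaks.

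Near the 20 kb limit, the farthest peak counted was a control peak 19486 bp from Ldha with 14 reads, and the nearest not counted was a control peak 20100 bp from Mpc2 with 12 reads.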
